A study of Mus musculus with 4 samples.

Results

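Open chromatin of the quadriceps (Quad) was compared with that of the diaphragm (Dia), on the 20000 highest-scored ATAC-seq peaks of each muscle. These 40000 peaks were taken from 40337 peaks of Quad and 21582 of Dia, out of 120839 peaks in the 4 muscle lists of the study. ATAC-seq marks DNA that the Tn5 transposase can reach, so a peak is a stretch of open chromatin, and its Peak Score is the number of sequenced tags scaled by library size. The study mapped muscles of different fibre makeup in sedentary mice. Both muscles here came from wild-type C57BL/6 mice with no transgene or treatment, and the study's methods describe the animals as young adult males. Each muscle was represented by 1 peak list from powdered whole tissue that the labels call pooled, so nuclei of fibres, vessels, nerve and connective tissue were mixed and the number of animals was not stated. The study's figure legends give up to 2 samples per muscle for ATAC-seq, and whether a list merges libraries could not be told. Without replicate lists no p-value was computed. Every interval below covers counting error only, peaks and genes are not independent replicates, and each difference describes these 2 lists.

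The quadriceps is a large limb muscle of the thigh, built mostly of fast fibres that run on glycogen and glycolysis. The diaphragm is the sheet between chest and abdomen that contracts with every breath, and its mixed fibres hold more slow and oxidative myosin, more mitochondria and more capillaries. Fibre identity is set by regulators such as MEF2 and SOX6, by calcium signalling through NFAT, and by PGC1α, the product of Ppargc1a, which drives mitochondrial biogenesis with ERR nuclear receptors.

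A few peaks show what was open in one muscle and not called in the other. For each gene, the highest-scored peak is printed for which the whole other list held no overlapping peak. The genes were chosen after their values were seen, from the calls described below. For Quad they are the fast-fibre genes Mylk2 and Tnnt3, the excitation gene Stac3, the glycogen gene Pgm2, the gene with the largest surplus of peaks (Dab2ip) and the highest-scored isolated peak outside repeats (Nctc1). For Dia they are Ppargc1a, Klf4, the slow-fibre gene Csrp3, the thin-filament gene Lmod3, the lipid gene Lpin1 and the position regulator Meis2. The letters are the plus strand of GRCm38.p6 (mm10), with matches to the 17 motifs defined below in capitals.
Mylk2, Quad, chr2:152914417-152914605: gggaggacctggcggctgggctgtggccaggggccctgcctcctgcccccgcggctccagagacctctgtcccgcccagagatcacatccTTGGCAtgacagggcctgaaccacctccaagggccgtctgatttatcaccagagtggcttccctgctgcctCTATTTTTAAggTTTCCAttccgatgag
Tnnt3, Quad, chr7:142498584-142498772: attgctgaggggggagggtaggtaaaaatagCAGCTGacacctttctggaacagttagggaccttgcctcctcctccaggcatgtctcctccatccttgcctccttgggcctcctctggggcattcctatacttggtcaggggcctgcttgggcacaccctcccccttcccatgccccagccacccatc
Stac3, Quad, chr10:127501609-127501797: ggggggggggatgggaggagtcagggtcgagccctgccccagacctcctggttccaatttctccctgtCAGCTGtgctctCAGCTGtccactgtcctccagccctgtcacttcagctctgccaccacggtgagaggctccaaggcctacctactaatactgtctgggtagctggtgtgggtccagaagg
Pgm2, Quad, chr4:99974398-99974586: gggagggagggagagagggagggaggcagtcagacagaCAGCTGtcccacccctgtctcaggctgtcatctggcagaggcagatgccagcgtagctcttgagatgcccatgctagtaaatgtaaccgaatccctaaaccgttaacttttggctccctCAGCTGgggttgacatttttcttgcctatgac
Dab2ip, Quad, chr2:35581612-35581800: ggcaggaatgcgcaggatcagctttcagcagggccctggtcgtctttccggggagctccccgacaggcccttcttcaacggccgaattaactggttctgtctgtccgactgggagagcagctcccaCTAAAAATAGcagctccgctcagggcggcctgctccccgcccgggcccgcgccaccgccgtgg
Nctc1, Quad, chr7:142553126-142553314: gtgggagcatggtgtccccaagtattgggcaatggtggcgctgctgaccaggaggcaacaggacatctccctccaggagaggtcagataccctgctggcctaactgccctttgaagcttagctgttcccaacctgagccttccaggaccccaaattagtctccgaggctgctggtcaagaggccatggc
Ppargc1a, Dia, chr5:51439931-51440163: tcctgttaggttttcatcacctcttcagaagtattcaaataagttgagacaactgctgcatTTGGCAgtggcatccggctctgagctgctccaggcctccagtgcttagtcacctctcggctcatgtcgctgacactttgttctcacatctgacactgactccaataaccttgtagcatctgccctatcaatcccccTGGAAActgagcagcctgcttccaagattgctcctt
Klf4, Dia, chr4:55530307-55530539: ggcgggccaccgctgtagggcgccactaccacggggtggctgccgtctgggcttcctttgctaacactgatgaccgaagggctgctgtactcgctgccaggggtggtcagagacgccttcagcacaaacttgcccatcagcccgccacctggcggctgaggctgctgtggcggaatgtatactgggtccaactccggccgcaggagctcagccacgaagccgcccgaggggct
Csrp3, Dia, chr7:48842287-48842519: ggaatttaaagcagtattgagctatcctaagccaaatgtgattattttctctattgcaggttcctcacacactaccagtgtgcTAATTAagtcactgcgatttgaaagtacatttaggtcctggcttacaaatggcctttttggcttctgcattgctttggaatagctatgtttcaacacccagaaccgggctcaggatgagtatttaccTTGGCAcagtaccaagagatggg
Lmod3, Dia, chr6:97265380-97265612: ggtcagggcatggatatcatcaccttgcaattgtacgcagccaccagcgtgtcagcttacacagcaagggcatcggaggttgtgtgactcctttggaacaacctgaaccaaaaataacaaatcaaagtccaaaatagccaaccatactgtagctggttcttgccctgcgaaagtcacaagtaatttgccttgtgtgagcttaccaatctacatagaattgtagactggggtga
Lpin1, Dia, chr12:16591523-16591755: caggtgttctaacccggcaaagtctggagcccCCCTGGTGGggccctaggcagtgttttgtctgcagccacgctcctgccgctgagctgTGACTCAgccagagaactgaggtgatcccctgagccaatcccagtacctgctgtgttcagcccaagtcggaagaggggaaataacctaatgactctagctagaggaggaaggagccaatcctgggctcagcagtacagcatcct
Meis2, Dia, chr2:116065673-116065905: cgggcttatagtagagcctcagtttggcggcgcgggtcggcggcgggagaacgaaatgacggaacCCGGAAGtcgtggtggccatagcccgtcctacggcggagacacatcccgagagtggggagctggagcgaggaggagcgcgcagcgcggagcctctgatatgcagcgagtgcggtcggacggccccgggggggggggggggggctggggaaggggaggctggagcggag
The Mylk2 peak lay in intron 3 of 11 and held a MEF2 site, an NFAT match and a nuclear factor 1 motif, and the Dab2ip peak in intron 1 of 16 held a MEF2 site. The myogenic E-box CAGCTG was found in the Tnnt3 promoter peak, and 2 copies each stood in the Stac3 promoter peak and in the Pgm2 peak in intron 7 of 10. None of the 6 Dia sequences held a MEF2 site or a CAGCTG E-box. The intergenic Ppargc1a peak held an NFAT match and a nuclear factor 1 motif, the Csrp3 peak in intron 1 of 5 a homeobox match and a nuclear factor 1 motif, the Lpin1 peak in intron 1 of 20 an AP-1 match and a CTCF core, and the Meis2 promoter peak an ETS match. The Klf4 peak in exon 3 of 5, the Nctc1 peak in intron 2 of 2 and the intergenic Lmod3 peak held no match. These 12 sequences were picked, so their matches say nothing of the lists as a whole, which are counted further below.

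The lists were cut at different depths. The 20000 highest-scored peaks were 49.6% of the Quad list and 92.7% of the Dia list, and the lowest score kept was 6.66 in Quad and 4.53 in Dia. Of the 511 Quad peaks and 362 Dia peaks at those scores, 405 and 333 were kept, by position. If scores are scaled to a library of 10 M tags, as their steps of 0.128 in Quad and 0.101 in Dia allow, the last kept peaks held about 52 tags in Quad and 45 in Dia. A missing peak therefore means that none was called there, and a Dia peak had far more low-scored Quad peaks to be matched with than the reverse. Scores were compared as percentiles within the 20000 peaks of their own list. The median score of these peaks was 10.1 in Quad and 7.86 in Dia, so a region with similar scores often stood at a higher percentile in Dia. The Lmod3 promoter, for instance, scored 7.81 in Quad and 7.55 in Dia but stood at percentiles 21.5 and 46.7. A percentile shift toward Dia is therefore a shift in rank and need not be a higher score.

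Both lists carried the marks of skeletal muscle. The thin-filament actin gene Acta1 had 2 peaks in each muscle, with the promoter peak at percentile 86.2 in Quad and 66.9 in Dia, and the creatine kinase gene Ckm had its promoter peak at percentile 90.5 and 59.1. Ttn, which encodes titin, had 6 peaks in each. The promoter of Ngdn, which the study displays as invariant between muscles, stood at percentile 98.4 in Quad and 97.6 in Dia. Myh6, the cardiac myosin gene displayed as a negative control, had no peak in either whole list.

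At 13177 regions a Quad peak overlapped a Dia peak by 1 bp or more, which was 65.9% of each list (95% Wilson interval, 65.2% to 66.5%). The other 6823 peaks of each muscle, 34.1%, were one-sided. Shared regions were largely promoters, with 56.9% (56.1% to 57.8%) of them annotated as promoters in Quad. One-sided peaks were promoters in 16.5% (15.6% to 17.4%) of Quad cases and 19.3% (18.4% to 20.3%) of Dia cases, somewhat more in Dia. Inside genes but outside promoters lay 53.7% of the one-sided Quad peaks and 42.8% of those of Dia, whereas 29.8% in Quad and 37.8% in Dia were intergenic. Since whole tissue was used, fewer cells of a type and less open chromatin per cell cannot be told apart in these peaks.

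The one-sided peaks of Dia were less one-sided than those of Quad once the whole lists were read. With every peak of the other muscle allowed as a partner, 6664 Quad peaks (33.3%) and 3490 Dia peaks (17.5%) had none. For 3333 Dia peaks (16.7%) a Quad peak existed below the 20000 used, at a median percentile of 36.4 of the whole Quad list, whereas only 159 Quad peaks (0.795%) had such a partner. Distance narrowed both further, since 5164 Quad and 2393 Dia peaks had no peak of the whole other list within 1 kb. One-sided peaks were low in their lists. Among the lowest-scored 20% of Quad, 61.1% (59.6% to 62.6%) were one-sided, and among the highest-scored 20%, 5.65% (4.98% to 6.41%). In Dia the shares were 77.2% (75.8% to 78.4%) and 3.03% (2.54% to 3.60%).

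Among the 8 highest-scored Quad peaks with no Dia peak within 1 kb, repeats and muscle genes stood side by side. The highest pair, near Gm5458 on chromosome 14, scored 44.8 and 44.2, and 85.2% and 72.5% of their bases were soft-masked repeats in the reference. The Mir101c peak scored 22.2 with 94.2% of its bases soft-masked, so reads of these 3 peaks may belong to other copies. The next was in intron 2 of Nctc1, a noncoding RNA gene between H19 and the fast troponin genes, at score 25.2 and percentile 95.5, and the nearest Dia peak was 268223 bp away. Promoter peaks of Trip10, a membrane-curving adaptor, Junb, an AP-1 subunit, and Plec, the cytoskeletal linker plectin, scored 21.4, 21.4 and 21.1, and an intergenic peak near the noncoding RNA gene Malat1 scored 21.3. Promoters of Junb and Plec are open in most tissues, and whether the Dia list is complete there could not be told from it, so these absences say only that the list holds no peak. The nearest Dia peaks were 1277 bp (Trip10), 11448 bp (Junb), 9639 bp (Plec) and 9967 bp (Malat1) away.

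The corresponding Dia peaks scored lower, and the 7 described here lay between 13.3 and 20.4. An intergenic peak at -34441 bp from Gad2 came first, at percentile 94.8, followed by one at -8457 bp from Msl1, a subunit of a histone acetyltransferase complex, at percentile 88.1. The Mfsd3 promoter followed at percentile 86.0, and an intronic peak of Lpin1, which encodes lipin, a phosphatidate phosphatase that also acts with PGC1α, at percentile 85.8. Intronic peaks of Synpo (percentile 85.5), the adhesion protein gene Tns1 (83.9) and the ribosomal RNA transcription factor gene Ubtf (81.6) followed. At most 20.6% of the bases of any of these 7 were soft-masked.

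Peaks were next counted per gene, using the gene that the deposited annotation assigned by the nearest start site. A gene could hold peaks in 1 list or both, and 13578 genes held at least 1. Of these, 3210 (23.6%) had more peaks in Quad, 3756 (27.7%) had more in Dia and 6612 had equal numbers, with a median difference of 0. A difference of 2 or more was called toward Quad at 956 genes (7.04%) and toward Dia at 695 (5.12%). Genes with few peaks can hardly reach such a difference. Among the 5147 genes with 3 or more peaks over both lists, 15.3% were called toward Quad and 9.40% toward Dia. Large surpluses were more often on the Quad side, with 61 genes at 5 or more toward Quad and 21 toward Dia.

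The 12 genes with the largest surplus in Quad were led by Dab2ip, which encodes a Ras GTPase-activating scaffold protein, with 15 peaks in Quad and 4 in Dia. All 15 lay in the gene itself or its promoters, and 12 had no peak in the whole Dia list. Lrrfip1, a nucleic-acid-binding protein gene, had 12 and 3, with 10 of the Quad peaks absent from Dia. Pdgfa, the ligand of the platelet-derived growth factor receptor alpha, had 10 and 2. The kinase gene Mylk2, whose product phosphorylates the myosin regulatory light chain of fast muscle, had 6 Quad peaks between -12148 and 3159 bp of its start site, at percentiles 43.3 to 85.0, and the whole Dia list held none. Pitpnm2, a phosphatidylinositol transfer protein gene, likewise had 7 and 0. Cradd, an adaptor of cell death signalling, Smyd2, a lysine methyltransferase that acts on sarcomeric and heat shock proteins, and Timp3, an inhibitor of matrix metalloproteinases, each had 11 and 4. Smox, the spermine oxidase gene, had 9 and 2, Angptl2, a secreted factor, 8 and 2, and Ahdc1, a DNA-binding protein gene, 7 and 1. The last of the 12, 9530091C08Rik, had 9 and 3, but 8 of its Quad peaks lay in the body of the nuclear receptor gene Rora. Of the Angptl2 Quad peaks, 7 of 8 lay in Ralgps1. With 10000 peaks per list, 10 of the 12 kept a surplus of 2 or more, and Pitpnm2 and 9530091C08Rik fell to 1.

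The 12 genes with the largest surplus in Dia were led by Klf4, a zinc finger transcription factor of endothelium and stress responses, with 4 peaks in Quad and 16 in Dia. Of the Dia peaks, 14 were intergenic and the farthest was at -581509 bp. Only 3 of the 16 had no peak in the whole Quad list, which held 22 Klf4 peaks in all. Ppargc1a had 2 in Quad and 9 in Dia. Its strongest Dia peak, at percentile 68.6, was 512693 bp from the start site and was shared with a Quad peak at percentile 19.5. The Ppargc1a promoter peak stood at percentile 34.4 in Dia, and its Quad partner was below the 20000 used. Of the 9 Dia peaks 4 had no partner in the whole Quad list, where the gene had 11 peaks. Fhl2, a LIM-domain protein gene of striated muscle, had 0 and 6, 2 of them without a partner. Ncald, a neuronal calcium sensor gene, had 0 and 5, all inside the gene and all absent from the whole Quad list, but none above percentile 19.0. Tmcc3, a membrane protein of the endoplasmic reticulum, had 8 and 16, and all of them lay in Tmcc3.

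The remaining 7 Dia genes were mostly names attached to distant or neighbouring sequence. 2010106C02Rik had 1 and 8, and 7 of the 8 lay in Prkce, the gene of protein kinase C epsilon. Mir3961 had 2 and 8, none closer than 102584 bp, and Mir680-3 had 0 and 5. Ly86, a leukocyte receptor accessory protein gene, had 5 and 11, all intergenic, Enpp6, a choline phosphodiesterase gene, 0 and 6, also intergenic, and 4922502H24Rik 0 and 5, all absent from the whole Quad list. Nedd9, an adhesion docking protein gene, had 5 and 11, of which 9 lay in the gene. With all peaks of both lists, 5 of the 12 turned toward Quad, namely Klf4, Ppargc1a, 2010106C02Rik, Enpp6 and Ly86, and 2 (Mir3961 and 4922502H24Rik, each at -4) kept a surplus of 2 or more in Dia. With 10000 peaks per list Klf4 alone kept such a surplus, at -2. The plot of peaks per gene shows both sets away from the diagonal.

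**Figure D1:**
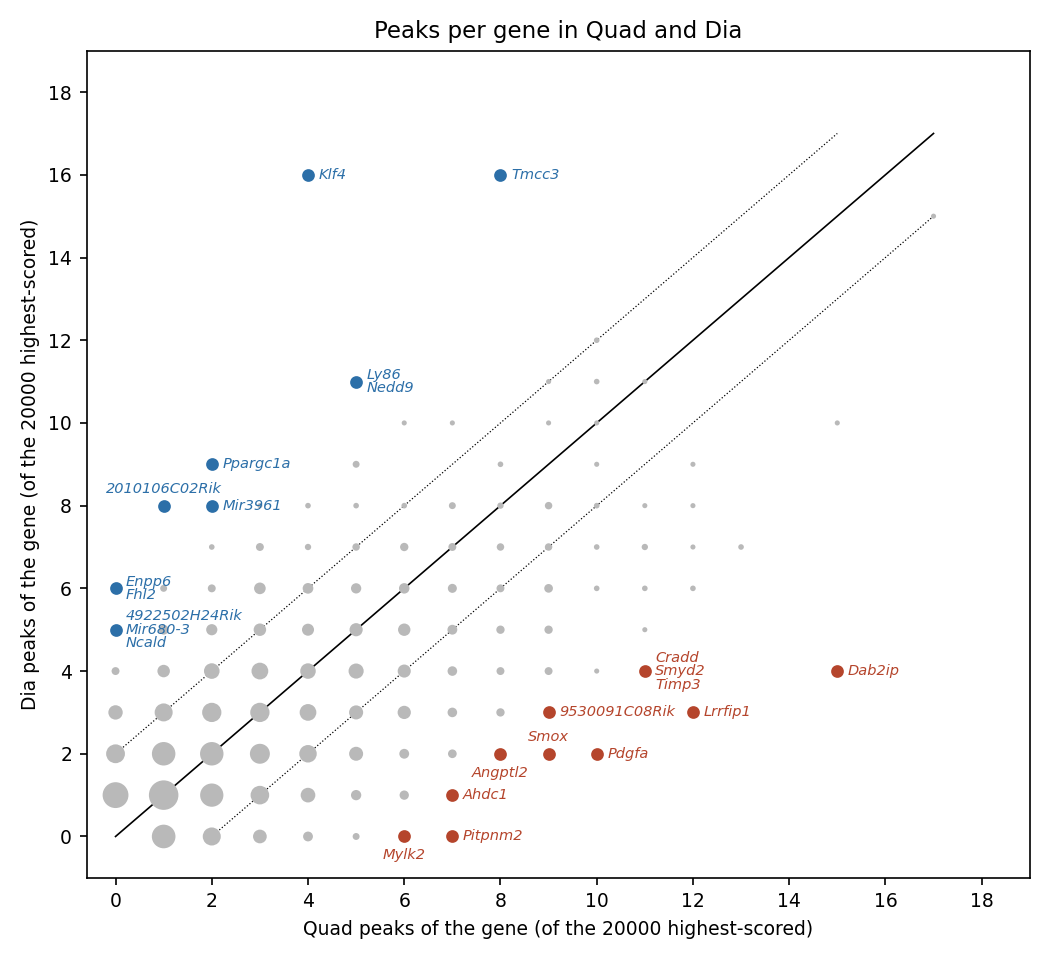
Peaks assigned to each gene among the 20000 highest-scored peaks of Quad (horizontal axis) and Dia (vertical axis). Grey points are genes, larger where more genes share the pair of counts; the solid line marks equality, the dotted lines a difference of 2, and the coloured names the 12 genes with the largest surplus on each side, from Dab2ip (15 and 4) to Klf4 (4 and 16).

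**Figure D2:**
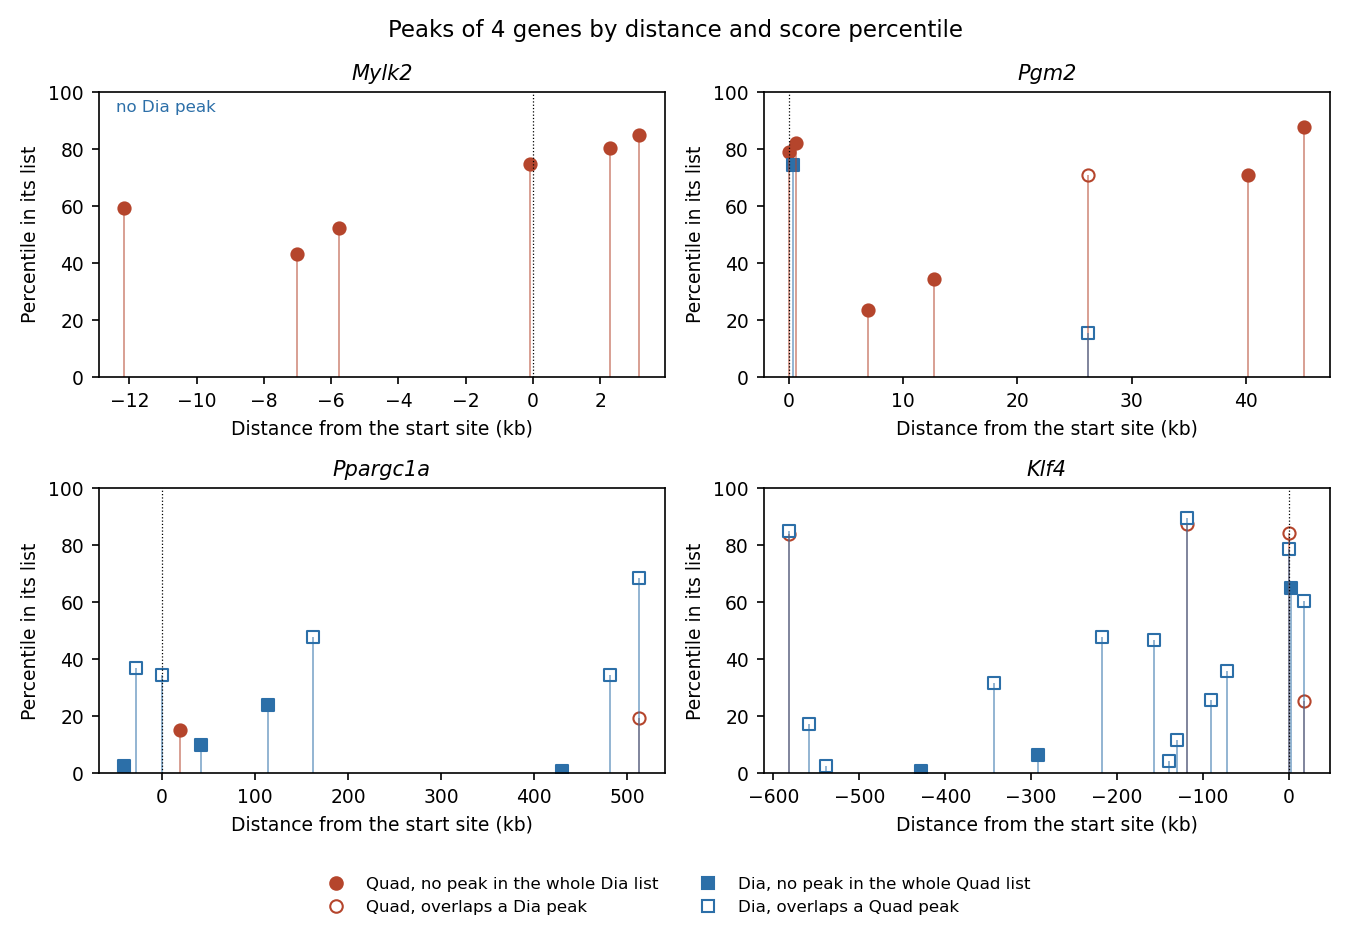
Peaks assigned to Mylk2, Pgm2, Ppargc1a and Klf4 by signed distance from the nearest start site (kb) and Peak Score percentile within the list. Circles are Quad and squares Dia, filled where the whole other list held no overlapping peak: all 6 Mylk2 peaks are filled Quad circles, whereas 13 of the 16 Klf4 squares and 5 of the 9 Ppargc1a squares are open.

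Peaks of fast-fibre genes were called mainly in Quad. At members without a Dia peak none was called, which does not show closed chromatin there. All 16 members of the list had a peak, with 41 peaks in Quad and 16 in Dia. The median member had 1 more peak in Quad, against 0 over all genes, and 28 of the 41 Quad peaks had no partner in the whole Dia list, against 33.3% of all Quad peaks. More peaks were found in Quad at 13 members, equal numbers at 2 and fewer at 1. A surplus of 2 or more was reached by 6 members, 37.5%, against 7.04% of all genes, and by 4 of the 8 members with 3 or more peaks, against 15.3% of such genes. No member was called toward Dia. Beside Mylk2, the calls were Myl1, the fast essential light chain, with 8 peaks in Quad and 4 in Dia, Ampd1, the muscle AMP deaminase, with 3 and 0, Actn3, the fast Z-disc actinin, with 2 and 0, Tnnc2, fast troponin C, with 2 and 0, and Casq1, the fast calsequestrin, with 4 and 2. The promoters of Actn3 and Tnnc2 stood at percentiles 67.8 and 73.5 in Quad without a Dia peak. Troponin genes Tnni2 and Tnnt3 had promoter peaks at percentiles 76.3 and 85.6 of Quad and none in Dia, and Atp2a1, the fast calcium pump, had its only peak at -2797 bp in Quad, at percentile 83.5. The Tnnt3 and Nctc1 peaks lay in the same stretch of chromosome 7 without a Dia peak, and the nearest Dia peak was 213681 bp from the Tnnt3 peak. These absences are therefore not independent, and whether the Dia list is complete there could not be told from it. Mybpc2 had 2 and 1 and Pvalb, the calcium buffer parvalbumin, 3 and 2. Myoz1 had 2 in each, Mylpf, the fast regulatory light chain, 1 in each at percentiles 98.9 and 98.5, and Tpm1, a tropomyosin gene of both fibre kinds and other tissues, was the exception with 3 and 4.

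Myosin heavy chain genes themselves held few peaks. Myh4, the fastest isoform, had its promoter peak at percentile 52.3 in Quad, and the nearest Dia peak was 73734 bp away. Myh1 had an intronic peak at 4772 bp in Quad, at percentile 41.9, and none in Dia. Near Myh2, the oxidative fast isoform, the single peak was in Dia at -7202 bp and percentile 0.833, and the whole Quad list held an overlapping peak at percentile 18.0. Myh7, the slow isoform, had no peak in either whole list.

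Genes of slow and oxidative fibres, called the slow-fibre list, had no more peaks in Dia than in Quad. The list includes Myh2 and Actn2, which are not confined to slow fibres. The 16 members had 15 peaks in each muscle, and 6 of them, Myh7, Myl2, Myl3, Tnni1, Tnnt1 and Tnnc1, had none in either set of 20000. Of the 10 with peaks, 3 had more in Quad, 4 more in Dia and 3 equal numbers, and the median difference was 0. Csrp3, the muscle LIM protein of the Z-disc, was called toward Dia with 0 and 2, at percentiles 47.8 and 30.3, and its peaks had no partner in the whole Quad list. Ankrd2, a stretch-responsive ankyrin repeat protein gene, was called toward Quad with 4 and 1, but its promoter was open in both, at percentile 48.8 in Quad and 61.4 in Dia. Myh7b had 0 and 1, Actn2, the Z-disc actinin of all fibres, 0 and 1, and Myh2 0 and 1. Casq2 had 2 and 1, Myoz2 4 and 3, and Mybpc1 3 and 3, whereas Tpm3 and Atp2a2, the slow calcium pump, had 1 in each. The Mybpc1 promoter stood at percentile 35.9 in Quad and 64.9 in Dia, with close scores of 8.84 and 9.77. A Casq2 promoter peak was 33.4 points higher in Quad, with scores of 11.7 and 6.14.

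Excitation and calcium release showed the largest share of calls toward Quad among the function lists. Of the 20 members with a peak (21 listed), 11 had a surplus of 2 or more in Quad and 1 in Dia, and 10 of the 16 with 3 or more peaks were called toward Quad, against 15.3% of such genes. Peaks summed to 73 in Quad and 39 in Dia, and 42 of the Quad peaks and 1 of the Dia peaks had no partner in the whole other list, against 33.3% of all Quad and 17.5% of all Dia peaks. Channels, triad proteins and kinases were among the called genes. Scn4a, the muscle sodium channel, had 3 and 0. Of the subunits of the voltage sensor, Cacna1s, Cacnb1 and Cacng1 had 5 and 2, 2 and 0, and 3 and 1, and Cacna2d1, which was not called, 3 and 3. Stac3, which couples the sensor to the ryanodine receptor, had 4 and 0, with its promoter at percentile 46.2. Jph2, which joins the membranes of the triad, had 9 and 5, the reticulum proteins Srl and Asph 7 and 4, and 4 and 2, the store-operated sensor Stim1 5 and 3, and the kinases Camk2a and Camk2b 4 and 1, and 4 and 2. Ryr1, the release channel, with 2 and 1, and Trdn, triadin, with 1 and 1, were not called. The exception was Kcnj2, an inward rectifier potassium channel gene, with 1 and 3.

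Glycolysis and glycogen genes followed the same side. All 30 members had a peak, with 80 in Quad and 52 in Dia, and 6 were called toward Quad and 0 toward Dia. Of the 23 members with 3 or more peaks these were 6, against 15.3% of such genes. Among the calls were Pgm2, a phosphoglucomutase, with 7 and 2, Hk2, the muscle hexokinase, with 5 and 1, Pfkm, the muscle phosphofructokinase, with 4 and 2, Pygm, the muscle glycogen phosphorylase, with 3 and 1, and Pfkfb3 with 7 and 5. Promoters of Hk2, Pfkm, Pygm and Pfkfb3 were open in both muscles. At Pgm2 the Quad promoter peak, at percentile 78.97, lay 116 bp from the nearest Dia peak without overlapping it. At Hk2 the promoter stood at percentile 88.5 in Quad and 85.8 in Dia, and the 4 further Quad peaks, between -32665 and 18036 bp, had no Dia partner. Over the 40 shared regions of the list, the median percentile was 6.27 points higher in Quad, against a median Quad minus Dia of -1.59 over all shared regions. The promoter of Ldha, lactate dehydrogenase, was 34.4 points higher in Quad, whereas an intronic region of Gbe1, the glycogen branching enzyme, was at percentile 3.33 in Quad and 65.6 in Dia.

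Regulators of oxidative metabolism leaned toward Dia through 3 genes. The 16 members, all with a peak, had 37 in Quad and 45 in Dia, and 3 (18.8%, against 5.12% of all genes, or 3 of the 12 with 3 or more peaks, against 9.40%) were called toward Dia and 0 toward Quad. They were Ppargc1a, its partner Esrrg, the oestrogen-related receptor gamma, with 2 and 4, and Epas1, the hypoxia-inducible factor 2 alpha, with 4 and 6. All 4 Esrrg peaks of Dia had a partner in the whole Quad list, 2 of them among its 20000. The remaining members differed by at most 1 peak, and Esrra, Nrf1, Perm1, Sirt1, Nr4a1 and Vegfa were among the 8 with equal numbers. The lean depended on the depth of the lists. Among the 10000 highest-scored peaks the sums were 20 and 15, and over all peaks 70 and 49, so both turned toward Quad.

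Effector genes of oxidative metabolism showed no common side in peak number. Respiratory chain and TCA cycle genes had 39 peaks in Quad and 45 in Dia over 32 of 34 members, mostly 1 promoter each, with Idh3a (4 and 2) called toward Quad and Idh2 (3 and 5) toward Dia. Sdha had 0 and 1, but its Dia peak overlapped a Quad peak assigned to another gene. Fatty acid genes had 56 and 50 over 27 of 30 members. Vldlr, a lipoprotein receptor, with 7 and 3, Ucp3, an uncoupling protein of muscle mitochondria, with 5 and 3, and Acsl6, an acyl-CoA synthetase, with 2 and 0 were called toward Quad, and Cd36, the fatty acid transporter, with 3 and 6 and Plin2, a lipid droplet coat protein, with 2 and 4 toward Dia. At shared regions, 5 of 36 of this list were 25 or more points higher in Dia and 0 in Quad. These were the promoters of Plin2 (percentile 32.7 in Quad and 73.1 in Dia), the carnitine carrier gene Slc25a20 (19.5 and 64.2) and Cd36 (10.6 and 47.8), a further intragenic Plin2 region and an intergenic region of Fabp3 (8.24 and 50.6). Some of these scores were close, at 7.17 in Quad and 7.65 in Dia for the Cd36 promoter and 7.04 and 7.96 for the Fabp3 region. The Plin2 promoter scored 8.58 and 11.2. Over all shared regions 11.3% were as much higher in Dia, so the count for the list was read as near the background.

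Regulators of fibre type were divided. All 22 had a peak, 93 in Quad and 76 in Dia, with 7 called toward Quad and 3 toward Dia. Of the 18 with 3 or more peaks these were 7 and 3, against 15.3% and 9.40% of such genes. Toward Quad these included the transcriptional coactivators Eya1 with 3 and 0 and Eya4 with 6 and 3. The fast-fibre factor Maf had 8 and 3, the TEAD cofactor Vgll4 13 and 7, Tead1 11 and 7, and Nfatc2 7 and 4. Toward Dia they were Sox6, the repressor of slow genes, with 4 and 8, Vgll2, a cofactor of TEAD factors, with 3 and 6, and Thrb, a thyroid hormone receptor, with 1 and 4. At Sox6, 4 of the 8 Dia peaks had no partner in the whole Quad list, where the gene had 17 peaks. The Sox6 promoter peak at percentile 67.0 was found in Quad alone.

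Myogenic factors were divided, and genes of all fibres leaned to Quad with exceptions. The myogenic list had 32 and 26 peaks over 10 of 15 members, with Mef2a (9 and 5), Mef2d (3 and 1) and Myf6, or MRF4 (3 and 1), called toward Quad and the E-proteins Tcf12 (2 and 4) and Tcf4 (3 and 5) toward Dia. Of its 6 members with 3 or more peaks 3 and 2 were called, against 15.3% and 9.40% of such genes. Its 18 shared regions had a median Quad minus Dia of -6.16 points, against -1.59 over all shared regions. With 10000 peaks per list it had 8 and 7. Among genes of all muscle fibres, 16 of 18 with peaks, 7 were called toward Quad and 2 toward Dia. Of the 13 with 3 or more peaks 6 and 2 were, against 15.3% and 9.40% of such genes. Among them Myom2, an M-band protein of fast fibres, had 6 and 1, Neb, nebulin, 5 and 2, Des, desmin, 5 and 2, Myom1 4 and 2, Ldb3, the Z-disc protein ZASP, 3 and 1, and Cav3, muscle caveolin, 2 and 0. Lmod3, a nucleator of thin filaments, had 3 and 6, of which 4 of the Dia peaks had no partner in the whole Quad list, and Mb, myoglobin, the oxygen store of oxidative fibres, had 3 and 5.

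Hox genes held few peaks. Of 39 Hox genes 12 had a peak, with 11 in Quad and 6 in Dia. Hoxa7 and Hoxc4 had 2 and 0 each and were called toward Quad, 16.7% of the 12, against 7.04% of all genes. None was called toward Dia. Hoxa3, Hoxa4 and Hoxc10 had 1 and 0, Hoxb1 2 and 1 and Hoxc8 1 and 1. Hoxa5, Hoxb2, Hoxb4 and Hoxd9 had 0 and 1. In all, 27 had none in either set. The 30 further position regulators had 38 and 40 peaks over 21 members. Calls toward Quad and Dia were 4.76% and 9.52% of these, against 7.04% and 5.12% of all genes. Of the 10 with 3 or more peaks they were 1 and 2, against 15.3% and 9.40% of such genes. Irx3 was called toward Quad with 7 and 2. Of 2 calls toward Dia, the Hox cofactor Meis2 had 0 and 3, and all 3 peaks lacked a partner in the whole Quad list. The limb genes Tbx4 and Tbx5 had no peak in either set.

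Atrophy and matrix genes added calls mostly on the Quad side. Immediate early, circadian and neuromuscular junction genes with 3 or more peaks were called near or below the share of all such genes. Toward Quad and Dia these calls were 1 and 1 of 17, 2 and 1 of 10, and 1 and 0 of 6, against 15.3% and 9.40%. In the immediate early list (69 and 71 peaks), Junb had 3 and 0, with the limit on its absence given above, and Klf4 the surplus in Dia given above. No other member reached a difference of 2, and without Klf4's 12 the list would lean to Quad. Circadian genes (47 and 40) gave Tef, with 6 and 3, and Cry2, with 3 and 1, toward Quad and Arntl, which encodes BMAL1, with 1 and 3, toward Dia. Atrophy and glucocorticoid genes (82 and 59) gave 6 calls toward Quad and 1 toward Dia, all among the 18 members with 3 or more peaks, against 15.3% and 9.40% of such genes. They were Ddit4, an mTORC1 inhibitor, with 8 and 3, Zbtb16 11 and 7, Sgk1 5 and 2, Klf15 5 and 2, Nr3c1, the glucocorticoid receptor, 9 and 7, Trim63, the ubiquitin ligase MuRF1, 3 and 1 toward Quad, and Tsc22d3, the glucocorticoid-induced leucine zipper, with 5 and 8 toward Dia. At the neuromuscular junction (23 and 17), Dok7, the activator of MuSK, had 4 and 1. Of 20 collagen and matrix genes with peaks (54 and 31), 8 were called toward Quad and 0 toward Dia, and 6 and 0 of the 14 with 3 or more peaks, against 15.3% and 9.40% of such genes. Col4a2 had 10 and 4, Col4a1, Col1a2, Col5a1 and Col6a3 had 3 and 1, 3 and 1, 4 and 1, and 5 and 2, Col15a1 4 and 0, and Col6a1 and Tnc 2 and 0 each. Collagens are made mainly by fibroblasts, whose markers had 26 peaks in Quad and 22 in Dia, and their part in this count was not tested.

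**Figure D3:**
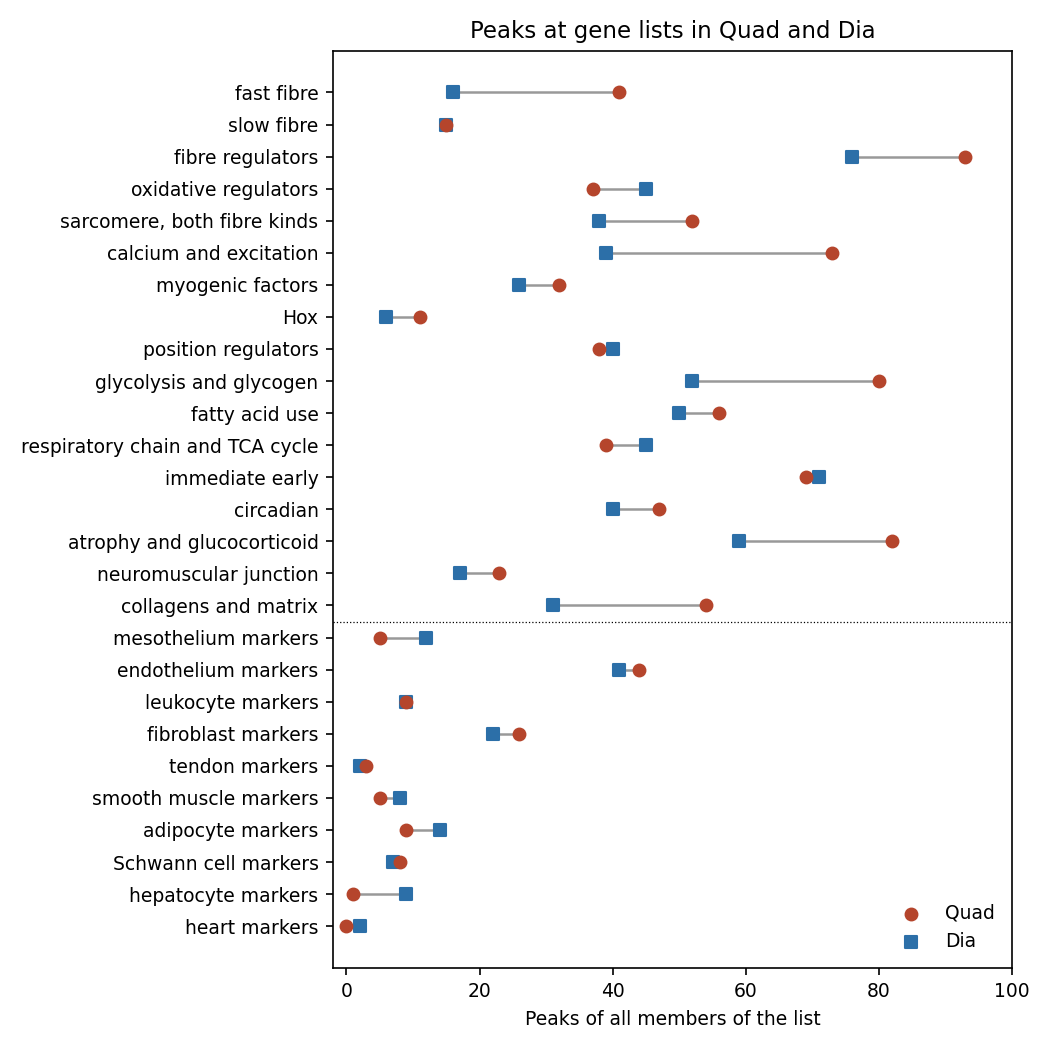
Peaks summed over the members of each gene list, with Quad as circles and Dia as squares on a common axis of peak number; the dotted line separates 17 function lists above from 10 marker lists of other cell types below. Fast fibre (41 and 16), calcium and excitation (73 and 39) and glycolysis and glycogen (80 and 52) lie apart toward Quad, slow fibre (15 and 15) coincides, and hepatocyte markers (1 and 9) and mesothelium markers (5 and 12) lie toward Dia.

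Markers of other cell types were read over their whole lists, beside the 7.04% and 5.12% of all genes called toward Quad and Dia. Endothelial markers had a peak in 1 list or both at 18 of 18, with sums of 44 and 41. Erg, Cdh5, Esam and Egfl7 were called toward Quad with 5 and 2, 4 and 2, 2 and 0, and 3 and 0, and Kdr, Emcn and Ptprb toward Dia with 3 and 6, 0 and 3, and 2 and 4. Of the 17 endothelial markers with 3 or more peaks 3 were called on each side, against 15.3% and 9.40% of such genes. Fibroblast markers had 26 and 22 over 10 of 17, with Dpt (4 and 2) and Osr1 (3 and 1) called toward Quad, and the defining Pdgfra and Dcn had no peak in either set. Leukocyte markers had 9 and 9 over 4 of 16, and Ptprc, Itgam and Cd68 had no peak among either 20000. Tendon markers had 3 and 2 over 2 of 8, and Schwann cell markers 8 and 7 over 5 of 9, with Pmp22 (4 and 1) toward Quad and Mbp (0 and 2) toward Dia.

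A further 5 marker lists had more peaks in Dia among the 20000, but none of them did among the 10000 highest-scored peaks, where hepatocyte and heart markers had 0 in each, adipocyte markers 5 in each, mesothelium markers 2 and 1 and smooth muscle markers 2 and 0. With all peaks hepatocyte markers had 10 and 11 and heart markers 3 and 3. Mesothelial cells cover the diaphragm, and their markers had 5 and 12 peaks over 7 of 15. Lrrn4 had 0 and 2, neither with a partner in the whole Quad list, and Podxl, shared with endothelium, 1 and 4. All 4 Podxl peaks of Dia had a partner in the whole Quad list, which held 7 Podxl peaks. Krt8 had 1 and 2, Krt18 0 and 1, and Upk3b, Gpm6a and Aldh1a2 1 in each. Wt1, Upk1b, Krt7 and Nkain4 had no peak in either set, and Msln, Krt19, Muc16 and Bnc1 none in either whole list. The liver lies against the diaphragm. Hepatocyte markers had 1 and 9 peaks over 6 of 10, and 8 of the 9 lacked a partner in the whole Quad list, against 17.5% of all Dia peaks. Apoa1 had 1 and 4, Alb, Apob, Hnf4a, Serpina1a and Cyp2e1 0 and 1 each, and Ttr, Fga and Cps1 none. These were low peaks, with the Hnf4a and Serpina1a promoters at percentile 6.32 and the Cyp2e1 promoter at 30.3. The highest, at -12769 bp from Apoa1 and percentile 40.9, was the 1 with a partner, a Quad peak at percentile 12.9, and lay in an intron of another gene. Its score was 7.05, against 7.30 for the Quad peak. Adipocyte markers had 9 and 14 over 8 of 12, with Pparg (1 and 3) and Dio2 (0 and 2) called toward Dia. Smooth muscle and pericyte markers had 5 and 8 over 5 of 10, with Notch3 (0 and 2) called toward Dia. Heart markers had 0 and 2 over 2 of 8, at Myl7 and Tnni3. The part of these cells in the one-sided Dia peaks was not tested.

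At the 13177 shared regions the scores were compared as percentiles. The median difference, Quad minus Dia, was -1.59 points, with quartiles of -12.5 and 4.74. At least 25 points higher in Quad were 653 regions (4.96%), and in Dia 1492 (11.3%). The classes differed in this. Among 7501 promoters 110 (1.47%) were shifted toward Quad and 725 (9.67%) toward Dia, among 3284 intragenic regions 323 (9.84%) and 448 (13.6%), and among 2392 intergenic regions 220 (9.20%) and 319 (13.3%). Percentiles within the whole lists gave another balance, with 3571 regions toward Quad and 202 toward Dia, because the longer Quad list then extends farther below the shared regions. So the number on each side depends on where the lists were cut, and the ordering of regions within it is what the values below describe.

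Toward Quad, the 10 largest differences were all outside promoters. An intergenic region at -46201 bp from Pthlh, the gene of parathyroid hormone-related protein, stood at percentile 80.7 in Quad and 2.58 in Dia (scores 15.6 and 4.63). An intron of the farnesyltransferase gene Fntb was at 80.4 and 6.32, and an intron of Gm31938 at 81.8 and 10.1. The Quad and Dia peaks at Fntb overlapped only at their edges, so largely different stretches were compared there. An intergenic region at -24967 bp from Azin1, an antizyme inhibitor of polyamine metabolism, was at 82.5 and 11.9. Between 67.8 and 70.5 points higher in Quad were an intron of Mon2, an intergenic region near Nudt4, an intron of Ino80 assigned to Chac1, an intron of Hip1 assigned to Pom121, an intron of Ephb1 assigned to Mir7243, and an intergenic region at 20480 bp from Mettl21e, a methyltransferase gene of fast muscle. Within the gene lists, Pgm2 (percentile 71.0 and 15.5 in intron), Mstn, the growth inhibitor myostatin (82.5 and 34.4 at -23976 bp) and Pvalb (74.1 and 30.3 in intron 1) had regions shifted the same way.

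Toward Dia, 5 of the 10 largest differences were promoters. The promoter of Myl12b, a regulatory light chain of non-muscle myosin, stood at percentile 1.01 in Quad and 73.6 in Dia (scores 6.66 and 11.3). The promoter of Egln3, the hypoxia-inducible prolyl hydroxylase, was at 3.33 and 72.0, and those of the histone gene Hist2h4, Mtf2 and Ccdc127, which adjoins Sdha, at 5.85 and 72.6, 3.33 and 67.4, and 3.33 and 66.9. The Quad and Dia peaks at Hist2h4 and at Mtf2 overlapped only at their edges, so largely different stretches were compared there. The Dia peak of the Ccdc127 region was assigned to a different gene. Outside promoters, an exon of the noncoding Gm29669 assigned to the phosphatase gene Ptp4a1 was at 1.01 and 71.4, an intron of Hdac4, a repressor of MEF2, at 3.33 and 72.0, an intergenic region near Zfp825 at 17.3 and 83.0, an intron of Clmp assigned to Hspa8 at 3.33 and 68.1 and an intron of the cytokine gene Il33 at 8.24 and 72.0. Over the regions outside promoters, Gbe1, Glrx, Bvht, Itga9 and Gm8579 completed the 10, with differences of -62.3 to -59.8 points.

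**Figure D4:**
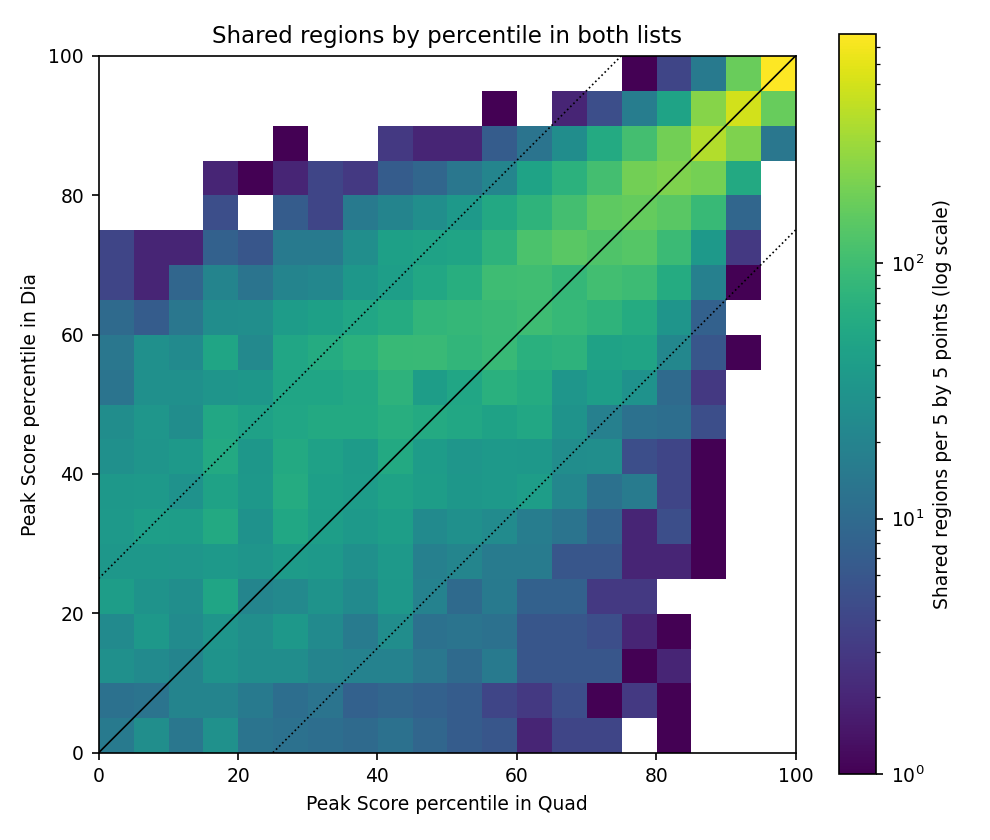
The 13177 shared regions by Peak Score percentile in Quad (horizontal axis) and Dia (vertical axis), in squares of 5 by 5 points coloured by the number of regions on a log scale. Most lie near the solid line of equality; 653 fall below the lower dotted line, 25 or more points higher in Quad, and 1492 above the upper one.

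Motifs were counted in a central window, as wide as a Quad peak, of the one-sided peaks outside promoters, 5698 in Quad and 5499 in Dia, on both strands. The search covered MEF2 and the glucocorticoid receptor (GR) palindrome, by their consensus, and shorter strings. These were the E-box CAGCTG, bound by MYOD and its relatives, CATTCCA for TEAD, TGGAAA for NFAT, TGACTCA or TGAGTCA for AP-1, TCAAGGTCA for ERR, AAGGTCA for nuclear receptors, which the ERR string contains, AGATAAG for GATA factors, TGTTTAC for forkhead, TGTGGTT for RUNX, AGGTGTG for T-box, TAATTA for homeobox, CCATAAA for posterior Hox, CCGGAAG for ETS, CCACNAGGG for the CTCF core and TTGGCA for nuclear factor 1. As background, windows of the same length 2 kb away were read. Mean GC content was 54.1% in the Quad windows and 52.2% in the Dia windows.

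E-box, MEF2 and GR sites were more frequent in the one-sided peaks of Quad than in those of Dia. The E-box was found in 24.5% of Quad and 18.9% of Dia windows, a difference of 5.59 points (95% Newcombe interval, 4.06 to 7.11), against 9.97% and 8.82% in the windows 2 kb away and 23.9% and 21.1% of all peaks outside promoters. MEF2 sites were in 5.35% and 3.11%, a difference of 2.24 points (1.501 to 2.99), against 1.58% and 1.62% 2 kb away and 5.23% and 4.21% of all peaks outside promoters. The GR palindrome was in 1.54% and 0.764%, a difference of 0.781 points (0.387 to 1.19), against 1.63% and 1.06% of all peaks outside promoters. Within each of 3 bands of score percentile (0 to 20, 20 to 40 and 40 to 100), E-box and MEF2 sites stayed more frequent in Quad with intervals above 0. For MEF2 the differences were 1.82, 2.67 and 2.46 points. For the GR palindrome the interval was above 0 in the highest band and included 0 in the lower ones (-0.0434 to 1.16 and -0.0635 to 1.28 points).

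Other sites were more frequent in the one-sided peaks of Dia. GATA sites were in 2.75% of Dia and 1.05% of Quad windows, a Quad minus Dia difference of -1.69 points (-2.21 to -1.19), although 2.47% of the windows 2 kb from Dia peaks and 2.35% of those 2 kb from Quad peaks held one, so the Quad peaks stood below their flanks and the Dia peaks near theirs. Of all peaks outside promoters 1.25% in Quad and 2.15% in Dia held a GATA site, 2.82% and 3.53% a forkhead site, 3.63% and 4.18% a TEAD site and 1.82% and 2.23% a CTCF core. Forkhead sites were in 4.16% and 2.70% (difference -1.46 points, -2.14 to -0.789), and TEAD sites in 4.80% and 3.60% (-1.20 points, -1.95 to -0.461). For forkhead the interval included 0 in the highest band of score (-2.15 to 0.634 points). In the lowest band the interval for TEAD, -1.19 to 1.08 points, included 0, and in the windows 2 kb away TEAD sites were in 2.56% for Quad and 3.20% for Dia. The CTCF core was in 2.42% and 1.72% (-0.699 points, -1.24 to -0.172), but among peaks absent from the whole other list the difference was 0.112 points (-0.506 to 0.666). For ERR, the nuclear receptor string, NFAT, AP-1, RUNX, T-box, homeobox, posterior Hox, ETS and the nuclear factor 1 motif the intervals included 0. Among peaks absent from the whole other list the nuclear receptor string differed by -1.54 points (-2.67 to -0.482), and with promoters included NFAT differed by -1.53 (-2.81 to -0.253) and ETS by -0.676 (-1.28 to -0.0785). AP-1 sites were in 7.95% and 8.18% (-1.24 to 0.776 points), and ERR sites were rare, in 0.421% and 0.546% (-0.394 to 0.137 points). At shared regions the windows of both lists cover nearly the same sequence, and there MEF2 sites were in 5.12% and 5.27%. E-box sites were there in 23.2% of Quad and 23.3% of Dia windows, and the GR palindrome in 1.71% and 1.35%. For these 3 motifs the one-sided Quad peaks stood near the shared Quad regions, and the one-sided Dia peaks stood below the shared Dia regions.

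**Figure D5:**
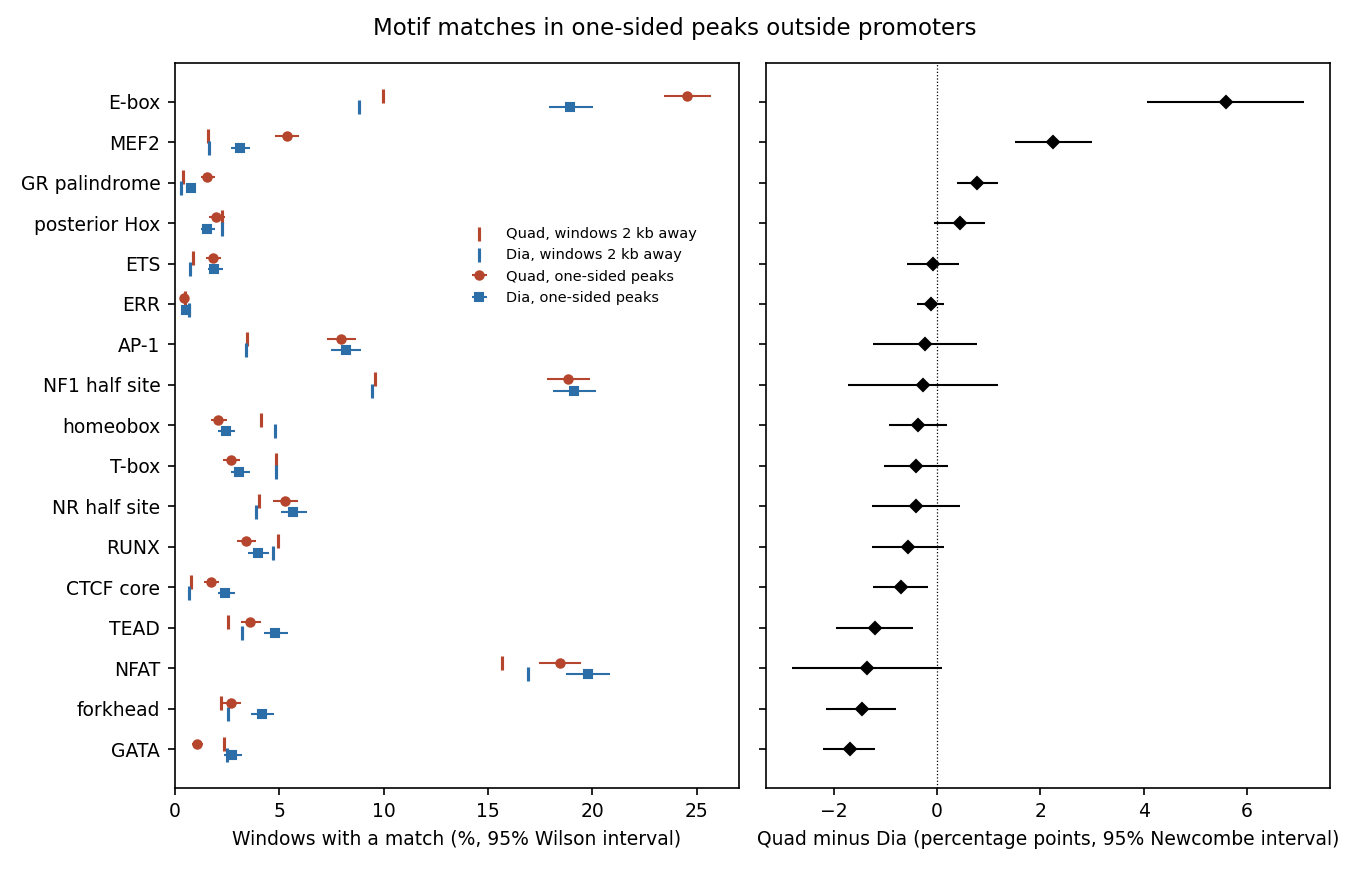
Share of one-sided peaks outside promoters with a match to each of 17 motifs (left, percent, Quad as circles and Dia as squares with 95% Wilson intervals, ticks for windows 2 kb away) and the difference of the shares (right, percentage points with 95% Newcombe intervals). E-box, MEF2 and GR sites lie above 0 toward Quad, and GATA, forkhead, TEAD and CTCF core sites below 0 toward Dia.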

How the data were processed

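ATAC-seq peaks were analysed in 1 pooled sample of quadriceps and 1 of diaphragm, and the lists of the other 2 muscles were not used here. The authors pulverised frozen muscle, transposed nuclei, aligned read pairs to mm10 with Bowtie2 and, with HOMER, kept 1 tag per start position, called fixed-width peaks and annotated each to the nearest transcription start site, with promoters from 1 kb upstream to 100 bp downstream. A Tn5 offset and the removal of mitochondrial or repeat reads are not given in the sources used here. The deposited Peak Score is a normalised tag signal per peak, and the deposited coordinates and distances are in bp. Peaks were 188 bp wide in Quad and 232 bp in Dia (end minus start). Score steps imply about 78.1 M tags in Quad and 99.3 M in Dia.

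The 20000 highest-scored peaks per list were ranked, ties by position, and matched by 1 bp of overlap. A percentile is the share of peaks scored lower, with ties split. Calls were 2 peaks per gene or 25 percentile points. Shares carry 95% Wilson intervals and differences Newcombe intervals. Gene names turned into dates by a spreadsheet were restored by Entrez ID for 21 Quad and 27 Dia peaks. Sequences came from RefSeq GRCm38.p6; all peaks on assembled chromosomes ended inside them. Python 3.11.15, pandas 2.3.3, scipy 1.17.1 and pyfaidx 0.9.0.4 were used, and matching and counting were tested on simulated peaks. The genes named are the 12 with the largest difference each way, the 10 most shifted shared regions each way over all classes and outside promoters, the 8 highest-scored isolated peaks per list, called list members and all members of the fast-fibre, slow-fibre, Hox and mesothelium lists. The comparison, the 17 function and 10 marker lists, the motifs and the sequences printed were chosen with earlier results of these data known. Some genes of these lists and a motif are not reported here. Alternatives were the number of peaks per list, the overlap rule, a 50 kb limit, and peaks with or without promoters.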

Additional observations from a re-analysis of the deposited data

How the results depend on the processing

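No paired analysis was possible because each muscle had 1 peak list, and no list could be left out. Counts on both sides rest on where the lists were cut. With 10000 peaks per list, 7418 regions were shared (13177 with 20000) and 25.8% of each list was one-sided (34.1%). One-sided shares were 44.8% of each list with 50% reciprocal overlap, 29.9% of Quad and 30.9% of Dia with centres within 500 bp, and 33.3% and 17.5% against the whole other list. Genes called toward Quad numbered 292 with 10000 peaks and 4544 with all peaks (956 with 20000), and toward Dia 146, 118 and, within 50 kb, 441 (695). With all peaks, 3571 shared regions were called toward Quad and 202 toward Dia, and the median shift turned from -1.59 to 9.72 points.

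Quad minus Dia peaks of the slow-fibre list, 0 with 20000 peaks, were -1 with 10000, 16 with all peaks and -1 within 50 kb. In the same order, regulators of oxidative metabolism (-8) gave 5, 21 and -2, position regulators (-2) 1, 45 and 2, and immediate early genes (-2) 2, 37 and 9. With 10000 and all peaks, calcium and excitation genes (34) gave 11 and 69, mesothelium markers (-7) 1 and 7, and smooth muscle markers (-3) 2 and 13. Glycolysis and glycogen genes (28) gave 58 with all peaks, respiratory chain and TCA genes (-6) 16, and adipocyte markers (-5) 6, whereas fatty acid genes (6) gave -5 with 10000. The fast-fibre sum stayed toward Quad in each of these. With all peaks, Klf4 turned to 6, 2010106C02Rik to 9, Ppargc1a to 2, Enpp6 to 2 and Ly86 to 11, the last also to 1 with 10000. Against the whole other list, the motif differences turned to 0.630 points for AP-1 (0.0995 with promoters), 0.112 for the CTCF core and 0.460 for ETS. The other alternatives turned no direction of these results. Apart from the list length and matching themselves, the cause was not tested.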
